A study of Mus musculus with 60 samples.

Results

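Liver transcriptomes of the bean-free control diet were compared between females and males. The series holds 60 mice in 6 groups, and the 20 mice whose label gives 0% bean were chosen: 10 females (animal codes P51, P56, P61, P66, P71, P76, P81, P86, P90 and P94) and 10 males (P01, P06, P11, P16, P21, P26, P31, P36, P41 and P46). All were wild-type C57BL6/J animals, an inbred strain prone to diet-induced obesity. From 8 weeks of age they ate for 12 to 14 weeks a purified obesogenic diet that drew no protein from bean, and the other groups ate the same base diet with 35% or 70% of its protein from white kidney bean. Each library is RNA of the liver of 1 animal. No sex hormone, growth hormone or castration arm was included, so the programmes are named after what is known of their control. The authors deposited raw counts of reads per transcript. Here the counts were summed per gene and restricted to the autosomes, so that no gene of the X or Y chromosome enters a comparison.

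Total counts ran from 24492629 to 41913476 (median 33694013), and 90.4 to 93.4% of each library lay in autosomal genes. No library's Y-linked counts went against its label, and no library was a copy of another. The 10 genes that define hepatocytes were all measured, with a summed level of 93320 to 136600 CPM (counts relative to the normalized library total) in females and 92080 to 122300 CPM in males. The male P01, the male P06 and the female P66 stood apart from their groups in many genes. Gene calls that rest on them are given with and without them. The SDs and the ranking by *Hsd3b5* were computed with all mice only. Animal codes up to P46 are males and those from P51 are females, so any order of handling that followed the codes cannot be told apart from sex.

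Male and female rodent livers express different sets of genes because the pituitary releases growth hormone differently in the sexes: in well separated pulses in males, and almost continuously in females. Sex steroids set this pattern after puberty, and the transcription factor STAT5 carries it to the liver genome, where the factors HNF6 and Cux2 act in females and Bcl6 in males. Among the best known outputs are the major urinary proteins (MUP), pheromone carriers that males excrete in large amounts, and cytochromes P450 that hydroxylate steroids at different positions in the sexes.

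Out of 12674 autosomal genes tested with edgeR's quasi-likelihood test, 3300 (26.0%) differed between the sexes at an adjusted p under 0.05. Of these, 1581 (12.5%) were higher in females and 1719 (13.6%) higher in males. Counts of list members given below are to be read beside these shares of all genes. The difference is given as log2FC, the log2 fold change of females over males, with its standard error (SE): positive values are higher in females. Most differences were small. Only 197 genes (1.55%) were at least 2-fold higher in females and 206 (1.63%) at least 2-fold higher in males, and the median log2FC over all genes was 0.0041. The groups did not overlap, with every female above every male or the reverse, in 506 genes (3.99%), 246 higher in females (1.94%) and 260 higher in males (2.05%). In whole liver, fewer cells of a type and less RNA per cell cannot be told apart.

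**Figure D1:**
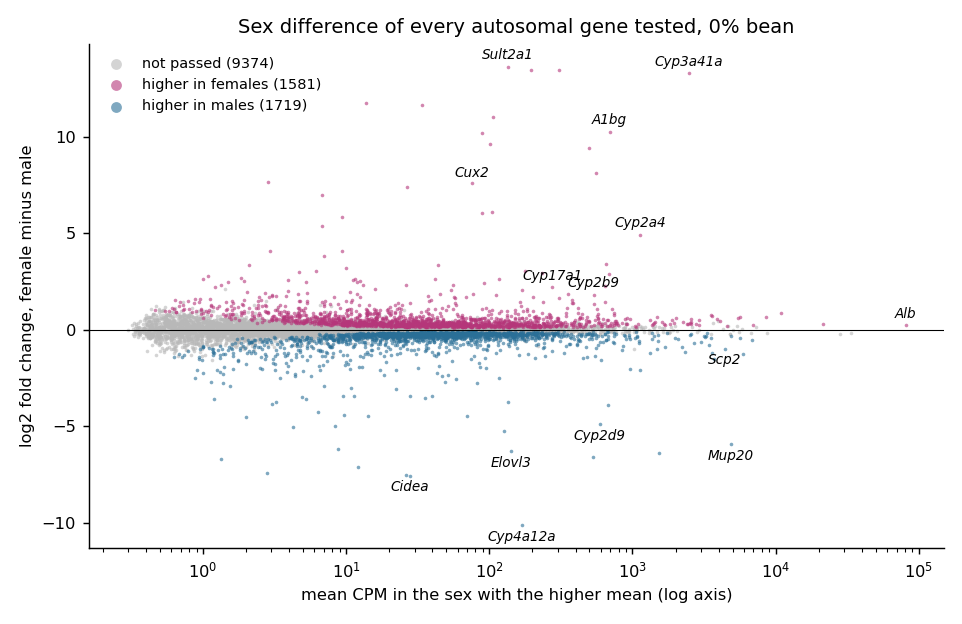
Each point is 1 of the 12674 autosomal genes tested; the horizontal axis is the mean CPM in the sex where it is higher (log axis) and the vertical axis the log2 fold change of females over males. The 1581 genes higher in females and the 1719 higher in males are coloured; the height of points for genes with almost no reads in 1 sex depends on the small count added in the fit.

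Male livers carried much more MUP mRNA. The 22 *Mup* genes lie side by side on chromosome 4 (GRCm38, 59956804 to 62150863). Of the 21 tested, 17 were higher in males, none was higher in females (0 also at an unadjusted p under 0.05, and with DESeq2 or limma-voom) and 4 did not pass, with a median log2FC of −1.50. Summed over the family, the level was lowest at 3120 CPM, had a median of 4857 CPM and was highest at 7671 CPM in females, against 11492, 16561 and 45448 CPM in males. Every male thus lay above every female, and the difference of 3.70-fold passed a two-sided permutation test (adjusted p = 4e-05 over 18 gene families, where 1e-05 is the smallest unadjusted p the 100000 permutations could give).

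The most abundant member in males by TPM was *Mup20* (ENSMUSG00000078672, 62050234 to 62054158), which encodes darcin, the urinary pheromone that attracts females. Its level was 57.7, 71.6 and 111 CPM (lowest, median and highest) in females and 2633, 4556 and 8265 CPM in males (log2FC −5.94, SE 0.23, adjusted p = 2.79e-15). Scaled for transcript length as TPM, *Mup20* made up 1.55% of the family's mRNA in females and 25.4% in males. *Mup22* (32.5%), *Mup3* (25.7%) and *Mup18* (17.5%) led the family in females. These abundant members differed less between the sexes, with a log2FC of −1.22 for *Mup22*, −1.50 for *Mup3* and −0.90 for *Mup18*.

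*Mup7* varied most among males, from 54.1 CPM through a median of 540 CPM to 7974 CPM, while females stayed between 9.94 and 35.1 CPM (log2FC −6.40, SE 0.81). *Mup14* had 44.9, 287 and 2629 CPM in males and at most 8.53 CPM in females (log2FC −6.57, SE 0.64). The top value of both belonged to P06. Without that mouse the log2FC was −5.48 for *Mup7*, −5.74 for *Mup14* and −3.80 for *Mup12* (−4.47 with it). *Mup21* ran from 57.2 to 329 CPM in males and from 7.33 to 13.0 CPM in females (log2FC −3.73, SE 0.25), with no overlap. With all mice included, the spread of log2 CPM was larger in males than in females for all 21 members tested, with a median SD of 0.708 in males and 0.437 in females. The genes are near-copies: only 5.41% of the 75-base words of *Mup14*, 8.32% of *Mup7* and none of *Mup22* occur in no other gene, against 56.4% for *Mup20*, 89.7% for *Mup21* and 92.6% for *Mup3*. Single values of the first group are therefore uncertain, while the family sum does not depend on how reads were divided among the summed members. Whether reads that match several genes were kept, or given to genes outside the sum, is not known.

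The 14 *Mup* genes that have an entry among RefSeq promoters (GRCm38.p6) all hold 2 copies of ATTGAT within 250 bases upstream of the start. ATTGAT is the core of the motif bound by HNF6. At least 1 copy on either strand occurs in 6.68% of 31396 autosomal promoters, and in 4.01% of the 12704 of tested genes. The 14 are not independent, since many are near-copies (up to 98.8% identical over 250 bases, for *Mup15* and *Mup17*). The abundant *Mup20* and *Mup22* have no entry. Stretches of 3 members are shown because their levels differed so widely: *Mup3* was abundant in both sexes, *Mup14* was nearly confined to males, and *Mup4* was at most 0.0355 CPM in any mouse. The capitals mark the motif, which reads ATCAAT on the strand of the gene.
Mup3, chr4:62087392-62087491, minus strand: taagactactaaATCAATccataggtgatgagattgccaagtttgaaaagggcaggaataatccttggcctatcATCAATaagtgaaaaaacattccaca
Mup14, chr4:61304075-61304175, minus strand: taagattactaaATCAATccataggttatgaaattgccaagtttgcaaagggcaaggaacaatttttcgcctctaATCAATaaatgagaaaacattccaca
Mup4, chr4:59960763-59960862, minus strand: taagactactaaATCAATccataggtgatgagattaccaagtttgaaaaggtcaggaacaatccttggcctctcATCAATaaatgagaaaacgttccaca
The copies begin 162 and 100 bases before the start in *Mup3*, 165 and 102 in *Mup14*, and 183 and 121 in *Mup4*. All 3 promoters hold the motif, and whether it bears on their levels was not tested. TTCNNNGAA, the motif of STAT5 (7.06% of promoters), was found in none of the 14 upstream regions.

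**Figure D2:**
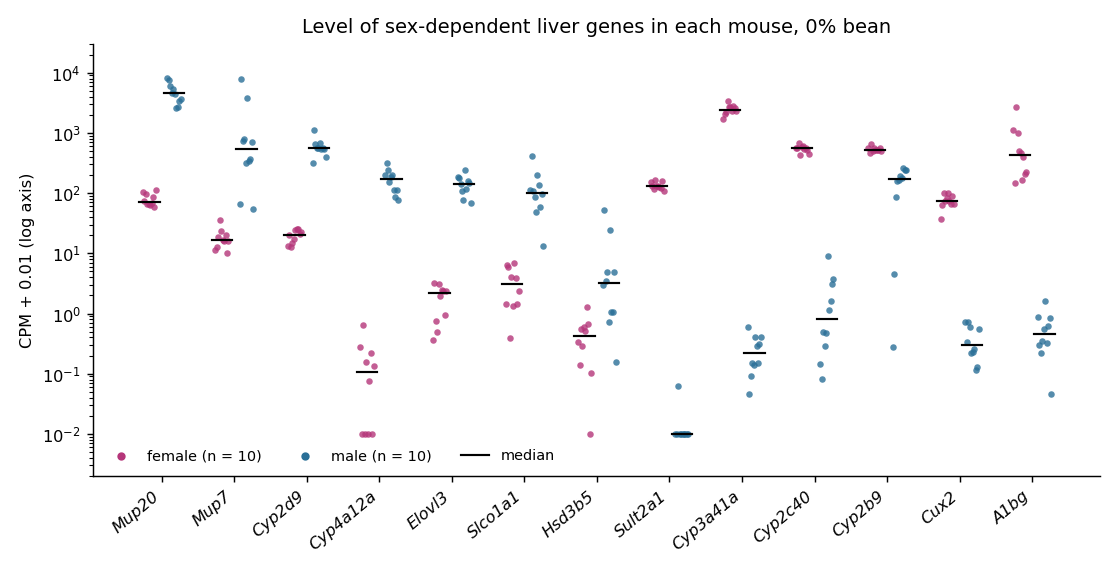
Level of 13 genes in each of the 20 mice as CPM + 0.01 on a log axis, 1 point per mouse with a line at the median. *Mup20* in males (2633 to 8265 CPM) is far above females (57.7 to 111 CPM), and *Cyp3a41a* shows the reverse. *Cyp2b9* (0.272 to 265 CPM), *Hsd3b5* and *Mup7* spread widely among males.

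Cytochromes of family 3A gave the reverse picture, with members that were almost silent in males. *Cyp3a41a* (ENSMUSG00000075551, chromosome 5, 145694049 to 145720136) had 1690, 2447 and 3419 CPM in females and 0.0359, 0.212 and 0.578 CPM in males (log2FC 13.27, SE 0.26, adjusted p = 1.12e-21). *Cyp3a41b* reached 448 CPM in females and 0.0849 CPM in males (log2FC 13.44, SE 0.31). These 2 genes share over 90% of their 75-base words (91.1% of *Cyp3a41a* occur in *Cyp3a41b*), so only their sum is free of how reads were divided between them. *Cyp3a16* ran from 54.2 to 138 CPM in females and had 0 to 0.248 CPM in males (log2FC 11.01, and 11.78 without the male P36). *Cyp3a44* ran from 26.5 to 181 CPM and 0 to 0.290 CPM (log2FC 9.60).

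The neighbour *Cyp3a11*, the main drug-metabolising member and the target of the xenobiotic receptor PXR, behaved differently. It had 1569, 1965 and 2118 CPM in females and 1247, 1787 and 2825 CPM in males, and the log2FC of −0.01 (SE 0.11, adjusted p = 0.971) did not pass. In males it supplied 80.6% of the family's TPM, and in females 33.2% beside 49.1% from *Cyp3a41a*. *Cyp3a25* was slightly higher in males (log2FC −0.38, SE 0.09). The family sum was 4579 to 6280 CPM in females and 1653 to 3189 CPM in males, with no overlap (2.28-fold, permutation adjusted p = 4e-05).

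The bases 120 to 31 upstream of the start of 5 neighbours are shown to set 3 members that were nearly absent from males beside 2 that were not (RefSeq, GRCm38.p6). Capitals mark ATCAAT.
Cyp3a41a, chr5:145720167-145720256, minus strand: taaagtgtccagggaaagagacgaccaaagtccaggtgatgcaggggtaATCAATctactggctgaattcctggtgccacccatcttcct
Cyp3a44, chr5:145805905-145805994, minus strand: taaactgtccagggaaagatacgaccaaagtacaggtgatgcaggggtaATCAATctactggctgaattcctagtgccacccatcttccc
Cyp3a16, chr5:145469754-145469843, minus strand: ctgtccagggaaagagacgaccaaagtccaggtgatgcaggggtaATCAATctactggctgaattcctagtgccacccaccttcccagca
Cyp3a11, chr5:145879885-145879974, minus strand: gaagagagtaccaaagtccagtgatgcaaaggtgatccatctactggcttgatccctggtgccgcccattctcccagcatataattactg
Cyp3a25, chr5:146009649-146009738, minus strand: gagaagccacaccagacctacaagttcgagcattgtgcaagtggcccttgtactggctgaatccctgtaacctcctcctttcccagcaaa
The motif begins 71 bases before the start in *Cyp3a41a*, *Cyp3a41b* and *Cyp3a44* and 75 bases before it in *Cyp3a16*, the 4 members that were nearly absent from males. It is not in the 250 bases upstream of *Cyp3a11*, *Cyp3a25*, *Cyp3a13* or *Cyp3a59*, and in *Cyp3a57*, which was too low to be tested, it begins 223 bases before the start. Over 250 bases *Cyp3a41a* is 92.4% identical to *Cyp3a16* and 94.4% to *Cyp3a44*, but 76% to *Cyp3a11* and 56.4% to *Cyp3a25*. TTCNNNGAA is in none of the 9 upstream regions. A match is a description of the letters, not of a bound site.

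Among cytochromes of family 2, which oxidise steroids, fatty acids and drugs, 15 of 35 tested were higher in females, 6 higher in males and 14 did not pass (median log2FC 0.07). The groups did not overlap for 15 of them (3.99% of all genes). *Cyp2c40* had 432, 563 and 681 CPM in females and 0.0718, 0.807 and 8.98 CPM in males (log2FC 8.12, SE 0.54), and *Cyp2c69* had 322, 444 and 959 CPM against 0.104, 0.375 and 3.19 CPM (log2FC 9.42, SE 0.43). No male came near the lowest female for either gene. Without the male P26 these values became 8.81 and 10.06. These 2 genes share reads (42.9% of the 75-base words of *Cyp2c40* and 56.8% of *Cyp2c69* occur in no other gene), so the level of each is uncertain. *Cyp2c37* (log2FC 1.61), *Cyp2c68* (1.36) and *Cyp2c70* (1.38), the mouse enzyme of muricholic acid synthesis, were graded rather than all-or-none.

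The female-biased steroid hydroxylase *Cyp2a4*, a testosterone 15α-hydroxylase on chromosome 7, had 842, 1139 and 1365 CPM in females and 2.33, 37.0 and 75.9 CPM in males (log2FC 4.93, SE 0.35, adjusted p = 2.29e-10). Its close paralog *Cyp2a5*, which oxidises coumarin and nicotine, had 399 to 782 CPM and 161 to 450 CPM (log2FC 0.72, SE 0.15), and these ranges overlapped. *Cyp2b9* was 467, 521 and 644 CPM in females, and 0.272, 171 and 265 CPM in males (log2FC 1.81, SE 0.53, adjusted p = 0.0133). Males therefore expressed substantial *Cyp2b9*, apart from P01 (0.272 CPM) and P06 (4.49 CPM), while the other 8 lay between 87.5 and 265 CPM. *Cyp2b13* was 66.9 to 150 CPM in females and at most 4.61 CPM in males (log2FC 6.12, SE 0.34). *Cyp2b10*, the classic target of the receptor CAR, was low in both sexes, at 7.09 to 25.8 CPM and 0.429 to 5.47 CPM (log2FC 2.49, SE 0.35).

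Male-biased cytochromes were fewer. *Cyp2d9*, the testosterone 16α-hydroxylase of male mice, was 12.9, 20.2 and 25.5 CPM in females and 320, 553 and 1105 CPM in males (log2FC −4.90, SE 0.20, adjusted p = 7.26e-15). It held 1.1% of the *Cyp2d* TPM in females and 23.9% in males. *Cyp2u1*, a fatty acid hydroxylase, ran from 6.29 to 11.1 CPM in females and from 30.5 to 82.8 CPM in males (log2FC −2.56, SE 0.13). *Cyp2e1*, which oxidises ethanol and acetone, was among the most abundant of the family and did not pass (log2FC −0.21, SE 0.14, adjusted p = 0.305), though it did without P01 (−0.31, adjusted p = 0.00596). Summed over families, *Cyp2a* (2.72-fold), *Cyp2b* (6.78-fold) and *Cyp2c* (2.12-fold) were higher in females, each with no overlap, *Cyp2d* was 1.31-fold higher in males (permutation adjusted p = 0.000556) with overlap, and *Cyp2j* differed by a log2 value of 0.05 (adjusted p = 0.63).

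Of 25 tested cytochromes of families 1, 3 and 4, 9 were higher in females and 6 in males (median log2FC 0.20). *Cyp4a12a* (ENSMUSG00000066071, chromosome 4, 115299046 to 115332815), an androgen-dependent arachidonic acid ω-hydroxylase, was 0, 0.0960 and 0.636 CPM in females and 75.4, 170 and 313 CPM in males (log2FC −10.13, SE 0.41, and −10.74 without the female P61). *Cyp4a12b* reached 83.5 CPM in males and 0.684 CPM in females (log2FC −7.52, and −8.55 without the female P76). The *Cyp4a* sum did not differ detectably (log2 difference −0.06, permutation adjusted p = 0.691). *Cyp1a2*, the caffeine-oxidising enzyme, was higher in females (log2FC 0.85, SE 0.17). *Cyp1a1* passed only through the female P51, at 45.4 CPM where the other 9 females reached at most 2.05 CPM: the log2FC was 2.49 with that mouse and −0.30 without it (adjusted p = 0.577). The call was also lost without P11, P16, P21, P36 or P41.

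**Figure D3:**
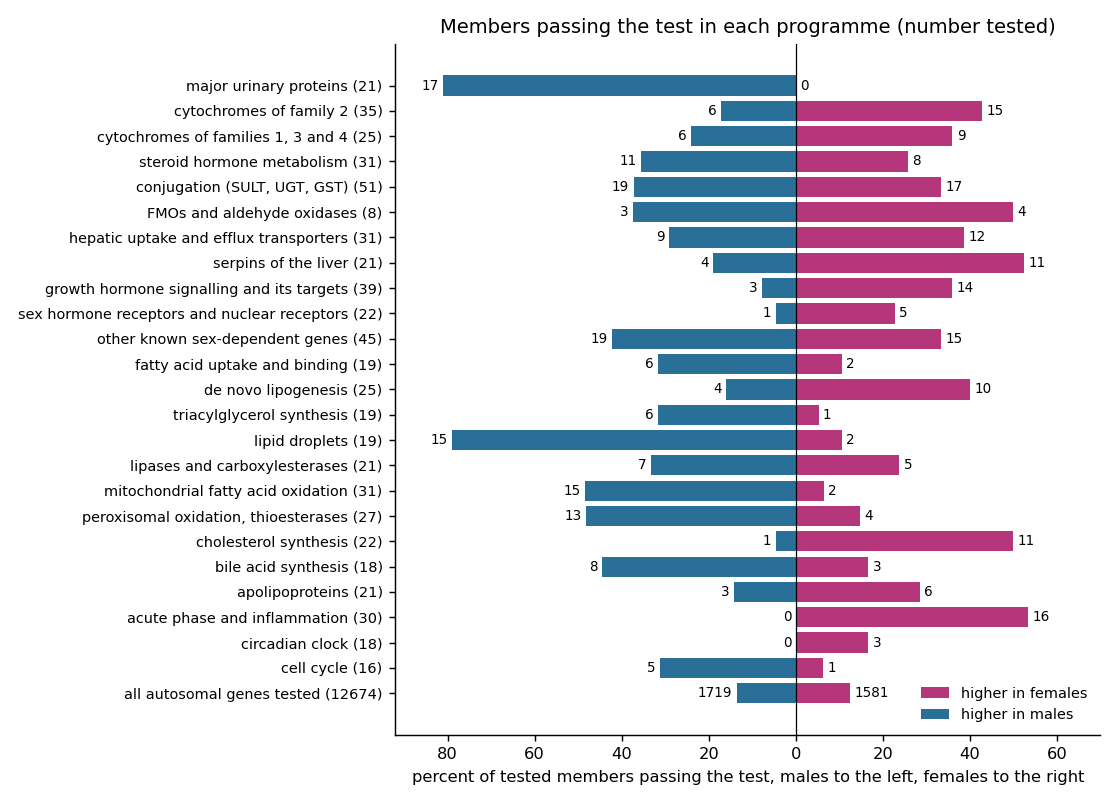
Percent of the tested members of each gene list that passed the test, higher in males to the left and higher in females to the right, with the number of genes at the end of each bar and the number tested in brackets. Major urinary proteins (17 of 21) and lipid droplet genes (15 of 19) leaned to males, and acute phase (16 of 30) and cholesterol synthesis genes (11 of 22) to females, beside 13.6% and 12.5% of all genes.

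Steroid metabolism was split rather than shifted: 8 of 31 tested genes were higher in females, 11 in males and 12 did not pass, with a median log2FC of −0.05. *Cyp17a1*, the 17α-hydroxylase and 17,20-lyase of androgen synthesis, was 194, 283 and 327 CPM in females and 43.8, 61.9 and 88.3 CPM in males (log2FC 2.19, SE 0.11, adjusted p = 3.41e-13), with no overlap. *Srd5a1*, the 5α-reductase that makes dihydrotestosterone, was 42.3 to 54.1 CPM in females and 61.5 to 111 CPM in males (log2FC −0.73, SE 0.08). *Akr1d1*, the 5β-reductase that inactivates steroid hormones and serves bile acid synthesis, was higher in females (log2FC 0.58, SE 0.09). *Hsd17b12*, which acts on oestrone and on long-chain fatty acids, was higher in males (log2FC −0.71, SE 0.07), while *Hsd17b2*, which oxidises oestradiol, was higher in females (log2FC 0.42, SE 0.08). *Por*, the reductase that feeds electrons to all microsomal cytochromes P450, was 1.63-fold higher in females (log2FC 0.70, SE 0.13).

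*Hsd3b5*, a 3-ketosteroid reductase known as a marker of the pulsatile growth hormone pattern, was low in most mice of both sexes. Females had 0, 0.417 and 1.28 CPM, and males had 0.145, 3.21 and 53.3 CPM (log2FC −4.44, SE 0.85, adjusted p = 0.000357). Only P06 (53.3 CPM) and P26 (24.0 CPM) exceeded 5 CPM, and the groups overlapped at the low end. Without P06 the log2FC was −3.43. *Hsd3b2* was higher in males (log2FC −0.69, SE 0.11), and the sum of the family did not differ (permutation adjusted p = 0.572).

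Conjugating enzymes held some of the clearest differences. Of 51 tested, 17 were higher in females (12.5% of all genes) and 19 in males (13.6% of all genes), and 19 had no overlap (3.99% of all genes). The hydroxysteroid sulfotransferases *Sult2a1*, *Sult2a2*, *Sult2a3* and *Sult2a5*, which sulfate DHEA and bile acids, lie within 1 cluster on chromosome 7 and were close to absent from males. *Sult2a1* had 109, 131 and 166 CPM in females, and 2 reads in all 10 males against 44094 in females (ratio of levels 19800, 95% interval 5490 to 164000 for counting error only). *Sult2a2* had 163, 188 and 247 CPM in females and at most 0.127 CPM in males (4 reads). *Sult2a3* had 10916 reads in females and 2 in males (ratio of levels 4910, interval 1360 to 40600), and *Sult2a5* had 4454 against 0, which puts females at least 1350-fold higher (floor of 3 reads over the 10 males). *Sult2a8*, which sulfates bile acids, ran the other way: 98.2, 122 and 170 CPM in females and 99.3, 207 and 454 CPM in males (log2FC −0.93, SE 0.19), and it supplied 12.6% of the family's TPM in females and 98.9% in males.

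*Sult3a1* was higher in females by a log2FC of 7.38 (SE 0.31), with at most 0.414 CPM in males. *Sult1e1*, the oestrogen sulfotransferase, was low (0.292 to 2.29 CPM and 0 to 0.363 CPM, log2FC 2.79). *Gstp1*, a glutathione transferase, was 161, 208 and 270 CPM in females and 467, 581 and 902 CPM in males (log2FC −1.58, SE 0.11, adjusted p = 9.96e-11). Flavin monooxygenases and aldehyde oxidases went both ways. *Fmo2* (log2FC 2.05), *Fmo4* (1.09) and *Fmo1* (0.57) were higher in females with no overlap. *Fmo5* (log2FC −1.04), *Aox3* (−1.47) and *Aox1* (−1.22) were higher in males.

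Transporters were divided too (12 of 31 higher in females, 9 in males, beside 12.5% and 13.6% of all genes). *Slco1a1*, an uptake carrier of organic anions and steroid conjugates, was 0.378, 3.10 and 6.91 CPM in females and 13.1, 102 and 411 CPM in males (log2FC −5.23, SE 0.53). Its neighbour *Slco1a4* was the reverse, at 76.1 to 128 CPM and 28.2 to 55.3 CPM (log2FC 1.14, SE 0.13), so that *Slco1a4* gave 97.4% of the *Slco1a* TPM in females and 31.6% in males. *Slc22a26*, of the organic anion transporter family, was 47.6 to 134 CPM in females and 0.170 to 2.45 CPM in males (log2FC 6.05, SE 0.28). At the canalicular membrane, the efflux pumps *Abcg2* (log2FC −1.49) and *Abcb4* (−0.75), which moves phosphatidylcholine into bile, were higher in males. The bile salt export pump *Abcb11* was higher in females (log2FC 0.32, SE 0.09).

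Plasma protein genes followed. Of 21 serpins, 11 were higher in females and 4 in males, beside 12.5% and 13.6% of all genes. *Serpina6*, which encodes corticosteroid-binding globulin, was 454, 570 and 667 CPM in females and 199, 268 and 341 CPM in males (log2FC 1.08, SE 0.10). *Serpina1e*, an antitrypsin paralog, was 17.1, 23.6 and 196 CPM in females and 81.3, 256 and 3559 CPM in males (log2FC −3.88, SE 0.72). Its highest male was P01, and the log2FC was −2.97 without P01 and −4.54 without the female P61. *Serpina12*, which encodes vaspin, was higher in males (log2FC −1.96, SE 0.23).

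In the growth hormone axis the mRNA of the receptor and of its relays differed little or not detectably, while several other listed genes differed by more. Of 39 genes, 14 were higher in females and 3 in males, and 22 did not pass. Without P01 these counts were 13 and 1. *Ghr*, the growth hormone receptor, was 415, 437 and 460 CPM in females and 395, 485 and 598 CPM in males (log2FC −0.18, SE 0.06, adjusted p = 0.0318, and 0.0522 without the male P36). *Jak2* (log2FC 0.05, adjusted p = 0.600) and *Stat5b* (0.09, adjusted p = 0.392), which relay its signal, did not pass. *Cux2*, the homeobox repressor of female liver, was 37.0, 74.5 and 101 CPM in females and 0.107, 0.287 and 0.724 CPM in males (log2FC 7.59, SE 0.24, adjusted p = 3.88e-17). *Bcl6*, a repressor known to be higher in male liver, had ranges that overlapped widely (4.58 to 42.9 CPM and 8.55 to 57.4 CPM, log2FC −1.05, SE 0.38), and its call was lost in 14 of the 20 fits that each left out 1 mouse, P01, P06 and P66 among them (adjusted p up to 0.0958). *Onecut1*, which encodes HNF6, had a log2FC of 0.53 (SE 0.26, adjusted p = 0.148) and passed without P06 (0.76, adjusted p = 0.0152).

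The prolactin receptor *Prlr* was 300, 353 and 471 CPM in females and 70.5, 97.1 and 143 CPM in males (log2FC 1.85, SE 0.12). The cytokine receptor *Lifr* (0.97), the corepressor *Trim24* (1.39), the transcription factor *Tox* (1.02) and *Igfals* (1.21), the carrier subunit of circulating IGF-1, were higher in females with no overlap. So were *Socs2*, a feedback inhibitor of growth hormone signalling (1.51, SE 0.24), and *Igf1* (0.52, SE 0.10), both with overlap. Of 22 nuclear receptors tested, 5 were higher in females and 1 in males, beside 12.5% and 13.6% of all genes. The oestrogen receptor *Esr1* was 41.9, 47.4 and 68.5 CPM in females and 16.0, 21.7 and 28.6 CPM in males (log2FC 1.21, SE 0.10). The adipogenic receptor *Pparg* was the member higher in males (log2FC −0.67, SE 0.11), and *Ppara*, the regulator of fatty acid oxidation, had a log2FC of 0.00 (SE 0.11, adjusted p = 0.994).

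Among 45 tested genes that were listed for a known sex difference in mouse liver, 15 were higher in females, 19 higher in males and 11 did not pass, which is no independent count since the list was drawn up for that property. *Elovl3*, an elongase of very long-chain fatty acids, was 0.354, 2.14 and 3.25 CPM in females and 69.8, 143 and 244 CPM in males (log2FC −6.30, SE 0.33). *A1bg*, a plasma glycoprotein of the immunoglobulin superfamily, was 149, 430 and 2691 CPM in females and 0.0363, 0.448 and 1.61 CPM in males (log2FC 10.26, SE 0.69). The peptide *Hamp2* of the hepcidin family (3.40), the hydroxyacid oxidase *Hao2* (3.35) and the acyl-CoA thioesterase *Acot3* (2.91) were higher in females. The terminal complement genes *C6* (−2.50) and *C8a* (−1.40) were higher in males. *Selenbp2* had a log2FC of −2.69 with all mice and −1.60 without P01, which had 284 CPM where the next male had 49.8 CPM.

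Lipid storage genes leaned to males. Of 19 lipid droplet genes tested, 15 were higher in males and 2 in females (median log2FC −0.45, beside 0.0041 for all genes). *Cidec*, which drives fusion and growth of droplets, was 0.827, 2.88 and 5.68 CPM in females and 26.2, 71.1 and 104 CPM in males (log2FC −4.45, SE 0.28, adjusted p = 2.03e-11). The related *Cidea* was 0, 0.107 and 0.446 CPM in females and 1.80, 29.9 and 46.4 CPM in males (log2FC −7.56, SE 0.57). *Fitm1*, which promotes droplet formation (−2.33), and the coat proteins *Plin2* (−0.50) and *Plin5* (−0.59) were also higher in males. *Pnpla3*, the droplet lipase whose human variant is tied to fatty liver, was 14.0, 21.2 and 45.6 CPM in females and 1.56, 4.85 and 8.94 CPM in males (log2FC 2.33, SE 0.26). Of 5 adipocyte markers only *Cfd* was high enough to be tested, and their summed level was 0 to 0.475 CPM in females and 0.680 to 36.9 CPM in males. *Plin1* was at 0 in all females and at most 0.550 CPM in males, and *Adipoq* at most 0.323 CPM in any mouse, with 17 reads in all males against 2 in females (ratio of levels 9.44, 95% interval 2.24 to 84.3 for counting error only). *Cfd*, the complement protease adipsin that adipocytes secrete, was 0.612 to 36.5 CPM in males and at most 0.475 CPM in females (log2FC −7.13, and −8.19 without the female P86). *Osbpl3*, of the oxysterol-binding protein family, was 0.824 to 5.93 CPM and 14.5 to 55.0 CPM (log2FC −3.52), with no overlap.

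Synthesis of fatty acids leaned the other way. Of 25 genes of de novo lipogenesis, 10 were higher in females, 4 in males and 11 did not pass (median log2FC 0.20). *Acss2* (log2FC 1.07), which makes acetyl-CoA from acetate, the carboxylases *Acacb* (0.80) and *Acaca* (0.58), the elongase *Elovl6* (0.86), the citrate lyase *Acly* (0.65), and the regulators *Srebf1* (0.40) and *Mlxipl* (0.44) were higher in females, each with overlap. *Fasn*, the fatty acid synthase, did not pass (log2FC 0.43, SE 0.19, adjusted p = 0.109) but did without the male P16 (0.52, adjusted p = 0.0476). *Scd1*, the Δ9-desaturase, did not pass either (−0.22, SE 0.14, adjusted p = 0.257). *Insig2*, which holds SREBP in the endoplasmic reticulum, was higher in males with no overlap (log2FC −0.83, SE 0.10). P01 had the lowest male level of *Acss2* (123 CPM), *Acacb* (127 CPM) and *Elovl6* (174 CPM), and their log2FC without it was 0.97, 0.71 and 0.77. The female P56 had the highest *Elovl6* (1682 CPM, next female 947), *Acly* (2916, next 2083) and *Acaca* (1128, next 813). When each mouse was left out in turn, their lowest log2FC was 0.64, 0.48 and 0.42. The adjusted p then rose to at most 0.046 for *Acly* and 0.0463 for *Acaca*.

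For triacylglycerol synthesis 1 of 19 genes was higher in females and 6 in males, beside 12.5% and 13.6% of all genes. Glycerol-3-phosphate dehydrogenase *Gpd1* was 417, 467 and 531 CPM in females and 566, 871 and 1031 CPM in males (log2FC −0.86, SE 0.08). *Mogat1* was higher in males (−1.83, SE 0.21) and *Dgat2*, the final acyltransferase, in females (0.50, SE 0.10). Of 21 lipases and carboxylesterases, 5 were higher in females and 7 in males. The esterase *Ces3a* (log2FC −1.22, SE 0.09) was higher in males and the plasma esterase *Ces1c* (0.76, SE 0.08) in females, both with no overlap. Among 19 genes of fatty acid uptake and binding, 2 were higher in females and 6 in males, beside the same shares of all genes (12.5% and 13.6%). *Fabp5* was 91.9, 163 and 280 CPM in females and 10.5, 21.4 and 34.0 CPM in males (log2FC 3.04, SE 0.21), and *Cd36*, the fatty acid translocase, did not pass (−0.28, SE 0.11, adjusted p = 0.0636) but did without P01 (−0.34, adjusted p = 0.0046), without P06 and without the female P94.

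Fatty acid oxidation leaned to males by small amounts. Of 31 mitochondrial genes 15 were higher in males and 2 in females (median log2FC −0.18), and no member was free of overlap. *Acadm*, the medium-chain dehydrogenase, had the smallest p (log2FC −0.49, SE 0.07), and *Cpt1a* (−0.27), the entry enzyme of mitochondrial oxidation, was among the 15. Of 27 peroxisomal genes and thioesterases, 13 were higher in males and 4 in females (median −0.20). The sterol carrier *Scp2* was 1890, 2244 and 2471 CPM in females and 3771, 4479 and 4804 CPM in males (log2FC −0.99, SE 0.06, adjusted p = 4.63e-12). The thiolase *Acaa1b* (−1.14) and phytanoyl-CoA hydroxylase *Phyh* (−0.57) were higher in males with no overlap. *Acot3* (2.91), already named, and *Hacl1* (1.10), which cleaves branched fatty acids, were higher in females.

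Cholesterol synthesis had 11 of 22 genes higher in females and 1 higher in males (median log2FC 0.25), none free of overlap. *Sqle* (0.74), *Lss* (0.61) and the regulator *Srebf2* (0.29) were among those higher in females. Bile acid synthesis had 8 of 18 higher in males and 3 in females, beside 13.6% and 12.5% of all genes. *Cyp7b1*, of the alternative pathway, was 9.75, 11.9 and 13.5 CPM in females and 25.6, 41.4 and 81 CPM in males (log2FC −1.89, SE 0.16, adjusted p = 3.51e-09). *Cyp8b1*, which sets the share of cholic acid, was higher in males (−0.78, SE 0.16), *Cyp39a1* in females (0.50, SE 0.10), and *Cyp7a1*, the rate-limiting enzyme of the classic pathway, did not pass (0.17, SE 0.25, adjusted p = 0.671). Of 21 apolipoprotein and lipoprotein genes 6 were higher in females and 3 in males, beside 12.5% and 13.6% of all genes. *Apoa4* was 1550, 2365 and 3414 CPM in females and 3944, 5731 and 8708 CPM in males (log2FC −1.28, SE 0.16), *Apob* was higher in males (−0.45, SE 0.06) and *Apom*, the carrier of sphingosine 1-phosphate, in females (0.89, SE 0.07), each with no overlap.

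Of 30 acute phase and inflammation genes, 16 were higher in females and none in males (0 also at an unadjusted p under 0.05 and with DESeq2, 1 with limma-voom), with a median log2FC of 0.57. Without the female P66, 12 were higher in females and 2 in males, with a median of 0.18. P66 had 5406 CPM of *Saa1* where the next female had 166 CPM, 6147 CPM of *Saa2* (next 123 CPM), 828 CPM of *Lcn2* (next 41.1 CPM) and 1269 CPM of *Orm2* (next 63.7 CPM). Without it the log2FC fell from 2.25 to −0.29 for *Saa1* (adjusted p = 0.300), from 2.87 to −0.21 for *Saa2* (0.530), from 1.80 to −0.04 for *Lcn2* (0.942) and from 2.05 to 0.17 for *Orm2* (0.598). The call of *Saa1* was also lost without P36, and that of *Lcn2* without any 1 of 9 of the 10 males. The metallothioneins passed without it as well, at 1.74 for *Mt1* (2.42 with it) and 1.22 for *Mt2* (2.61 with it). Fibrinogen (*Fgb*, log2FC 0.66, SE 0.11) and *Itih4* (0.72) were higher in females with all mice. Without P66 the log2FC was 0.60 for *Fgb* and 0.50 for *Itih4*.

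Markers of other cell types moved with sex in part. Of 10 Kupffer cell and macrophage markers 7 were higher in females and none in males (0 also at an unadjusted p under 0.05, and with DESeq2 or limma-voom), with a summed level of 441 to 952 CPM (median 677) in females and 323 to 713 CPM (median 442) in males. *Clec4f*, specific to Kupffer cells, had a log2FC of 0.98 (SE 0.12). Of 10 stellate cell markers 2 were higher in males (13.6% of all genes), *Col1a1* (log2FC −0.99, SE 0.26) and *Col1a2* (−0.73, SE 0.22), and 8 did not pass. Their sum was 328 to 630 CPM in females and 384 to 1021 CPM in males, with overlap. Of 8 sinusoidal endothelial markers 2 were higher in females (12.5% of all genes) and 6 did not pass. No cholangiocyte, T cell, B cell, neutrophil or erythroid marker passed (3 B cell markers were higher in females at an unadjusted p under 0.05, and with limma-voom 1 cholangiocyte, 1 T cell and 1 B cell marker passed). The summed adipocyte markers, given above and made up mostly of *Cfd*, were higher in every male than in any female. *Plin1* was at 0 in 9 of the 10 males and *Adipoq* in 6, so the sum is largely 1 gene. The pancreatic acinar genes *Prss1*, *Prss2* and *Pnlip* were at 0 in all mice. The part of these marker levels, the adipocyte list included, in the differences above was not tested. Clock genes mostly did not pass (3 of 18 higher in females, and 1 without P66). In the cell cycle list 5 of 16 were higher in males, but P01 had the highest value of both genes named here. *Ccnb1* had a log2FC of −1.62 with P01 and −0.99 without it, and *Cdk1* −0.90 and −0.67 (adjusted p = 0.052 without it). *Ccnd1* was higher in females (0.95, SE 0.17).

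With all mice included, males varied more than females. The SD of log2 CPM was larger in males for 8187 of the 12674 genes (median 0.197 and 0.172). Among the 97 genes of at least 10 CPM that were at least 2-fold higher in males, it was larger in males for 70 (median SD 0.442 in males and 0.319 in females). Among the 100 that were 2-fold higher in females it was larger in males for 64 (0.381 and 0.288). The SDs were not computed without P01 or P06. Male libraries also had fewer counts in named genes (mean 32036442 against 35770891). The part of single mice or of depth in the spread was not tested. The summed MUP level was 11490 CPM in P46, 13030 CPM in P31, 13390 CPM in P01, 15120 CPM in P21, 16390 CPM in P36, 16730 CPM in P16, 16960 CPM in P41, 16970 CPM in P11, 28000 CPM in P26 and 45450 CPM in P06. P06 and P26 thus stood above a group of 8 males that lay within 11490 and 16970 CPM.

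Other male-biased genes followed this order in part. Over the 10 males the log2 level of 18 genes was correlated with the log2 MUP sum (36 relations with those of females, permutation p adjusted by Benjamini-Hochberg). *Hsd3b5* had r = 0.94 (adjusted p = 0.0151) and ρ = 0.867 (0.0373), and *Cyp2d9* r = 0.869 (0.0187) and ρ = 0.855 (0.0373). On CPM without TMM *Hsd3b5* passed (r = 0.943, adjusted p = 0.00792) and *Cyp2d9* did not (r = 0.83, adjusted p = 0.0636). With P06 and P26 left out r was 0.695 for *Hsd3b5* and 0.683 for *Cyp2d9*. *Cyp7b1* (r = 0.834, adjusted p = 0.0264, ρ = 0.636, adjusted p = 0.284) and *Ghr* (r = 0.784, adjusted p = 0.0489, ρ = 0.636, adjusted p = 0.284) passed by r alone, and they rest on those mice, since r fell to 0.403 and 0.476 without them. Without P01, *Serpina1e* (r = 0.93, adjusted p = 0.00624, beside 0.454 with it), *Cd36* (−0.899, adjusted p = 0.0245, beside −0.379) and *Slco1a1* (0.817, adjusted p = 0.0416, beside 0.772) passed as well. With P01 kept and P06 and P26 left out, r was 0.0108 for *Serpina1e*, 0.227 for *Cd36* and 0.506 for *Slco1a1*. Leaving out P01 together with P06 and P26 was not tried. None of the 18 passed in females. Ranked over 7657 genes with a mean of at least 10 CPM in males, those whose level was most like *Hsd3b5* over the 10 males were *Mup14* (r = 0.955), *Mup2* (0.946), *Mup12* (0.937), *Mup19* (0.922) and *Cyp7b1* (0.909), and the most opposed were *Lims1* (−0.859), *Gsr* (−0.849), *Marcksl1* (−0.843), *Tcta* (−0.839) and *Cc2d1b* (−0.831). These are the extremes of many genes over 10 mice, given as a description without a test. The *Mup* genes among them are near-copies that may share reads, so they are not separate observations. The ranking was not repeated without P06 and P26, the males with the highest *Hsd3b5*. *Mup2* and *Mup12* met the filter of 10 CPM only through P06 (40.9 and 62.3 CPM). Their medians over the males were 7.66 and 5.83 CPM.

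P01 and P06 departed from the other males in different genes. P01 combined the highest *Mup20* (8265 CPM), *Serpina1e* (3559 CPM) and *Selenbp2* (284 CPM) with the lowest *Cyp2b9* (0.272 CPM), *Cyp2c37* (6.63 CPM) and *Cidea* (1.80 CPM), while its *Hsd3b5* (2.96 CPM) and MUP sum were unremarkable. P06 combined the highest MUP sum, *Hsd3b5* and *Cyp2d9* (1105 CPM) with the lowest *Cyp2a4* (2.33 CPM) and low *Cyp2b9* (4.49 CPM). Without P01 the number of genes that differed between the sexes was 3770, and without both males 3689, beside 3300 with all mice.

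**Figure D4:**
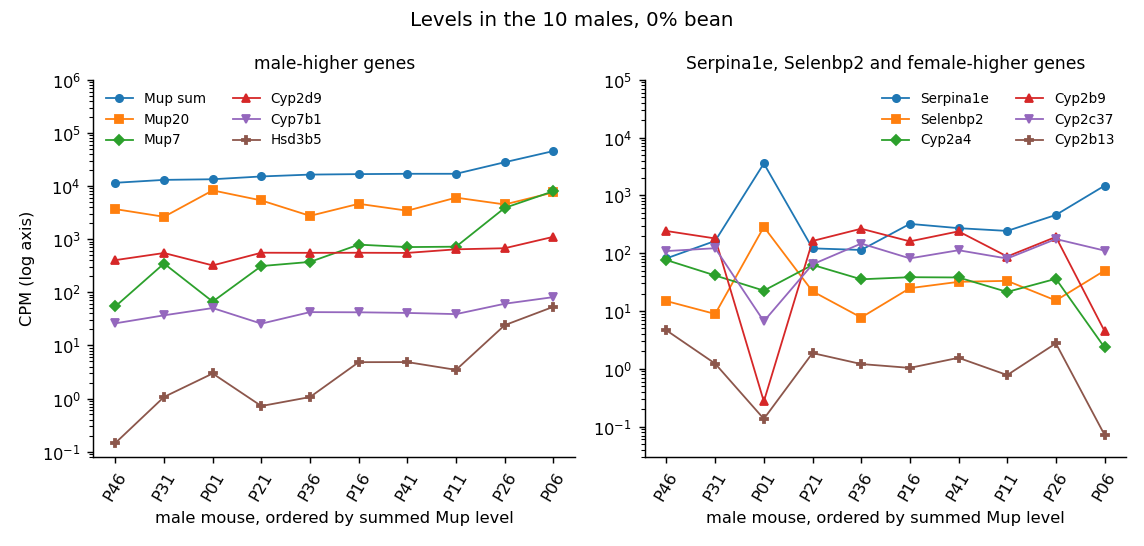
CPM (log axis) in each of the 10 males, ordered by their summed MUP level, for male-biased genes on the left and for *Serpina1e*, *Selenbp2* and female-biased genes on the right. The MUP sum and *Hsd3b5* are highest in P06 and P26, and *Cyp2b9* drops in P01 (0.272 CPM) and P06 (4.49 CPM).

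To see how far the sex difference of the control diet held under bean, it was compared with that at 35% and 70% bean in a model of all 60 mice (both tests share the 20 control mice). Against 70% bean, 386 of 13317 genes (2.90%) differed, 234 with a difference (0% minus 70%) above 0 (1.76%) and 152 below 0 (1.14%), and against 35% only 1 gene (0.00751%), *Cyp3a11*. On their own, 30.6% of genes tested differed between the sexes at 35% bean and 36.6% at 70%. The count of 386 rests in part on the male P04 of the 70% group, without which 830 genes differed. Levels in this model are scaled over 60 mice and deviate slightly from those above. *Cyp3a11* had medians of 1918, 1900 and 2610 CPM in females and 1753, 3602 and 5170 CPM in males at 0%, 35% and 70% bean. Its sex difference at 0% thus lay above that at 35% by 0.99 on the log2 scale (adjusted p = 0.0153) and above that at 70% by 0.84 (adjusted p = 0.00568). The level was higher in males at both bean doses and not at baseline.

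Other members of the programmes had a smaller difference at 0% than at 70% bean. For *Mup21* (difference 1.54, adjusted p = 0.0202), *Mup11* (1.83, 0.0477), *Gstp1* (1.25, 0.00373), *Srd5a1* (0.68, 0.00618) and *Aox1* (0.41, 0.0428) the excess of males was smaller at 0%. For *Cyp2b13* (−2.63, 0.0242), *Cyp2c40* (−2.03, 0.0327), *Cyp2a22* (−1.85, 0.0178), *Slc22a27* (−1.40, 0.0243) and *Trim24* (−0.60, 0.00479) the excess of females was smaller at 0%. The values of *Cyp2c40* and *Mup11* (14.3% of its 75-base words in no other gene) are uncertain for the sharing of reads. *Cyp2a22* had medians of 114 CPM in females and 20.1 CPM in males at 0% and of 191 and 5.45 CPM at 70%. The reverse, a larger difference at 0%, held for the male-biased *Abcb4* (−0.47, adjusted p = 0.000284), *Acadm* (−0.40, 0.0276) and *Acaa1b* (−0.58, 0.0375). *Cpt1a* (−0.52, 0.0109) was higher in males at 0% and higher in females at 70% (log2FC 0.25, adjusted p = 0.00329). The genes with the smallest p were *Atp6v0d2* (−2.09, 7.59e-05), *Rtp3* (0.67, 7.86e-05), *Rdh9* (−1.23, 0.000284), *Abcb4* and *Atp8b1* (0.61, 0.000691). At 35% the smallest p after *Cyp3a11* belonged to *Ly6a* (adjusted p = 0.126), *Akr1b8*, *Plekhd1* and *Scara5* (0.150 each). For *Hsd3b5* (3.08, SE 1.44, adjusted p = 0.238), *Mup20* (0.74, SE 0.50, adjusted p = 0.451), *Cyp2d9* (0.78, SE 0.32, adjusted p = 0.170) and *Cyp3a41a* (−0.28, SE 0.45, adjusted p = 0.789) a change between 0% and 70% was not shown.

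**Figure D5:**
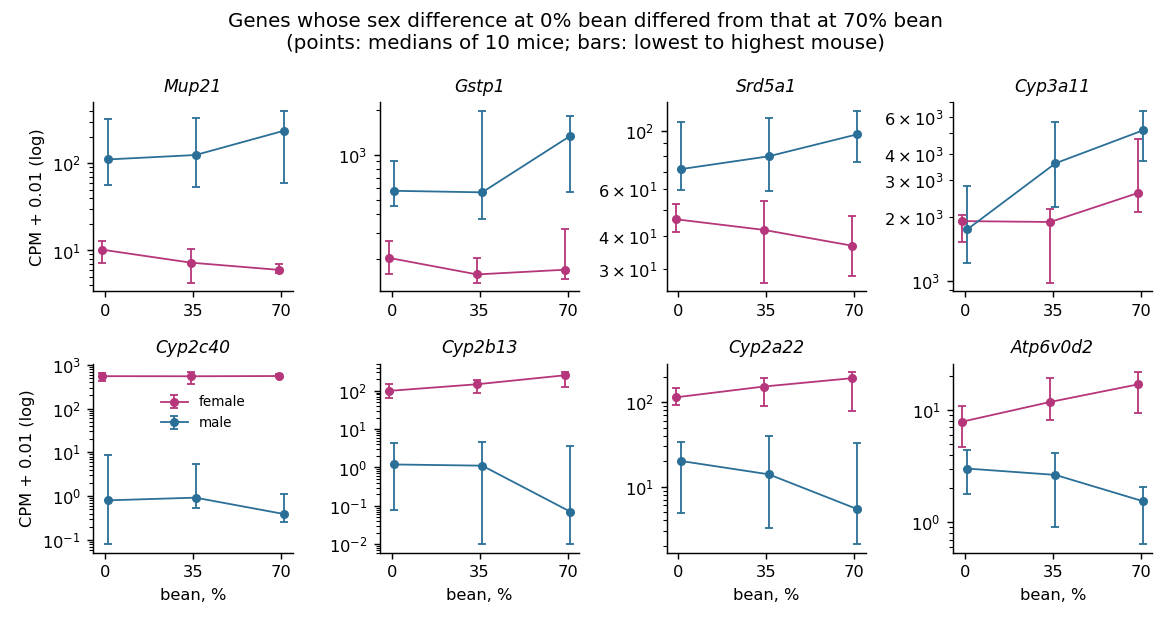
CPM + 0.01 (log axis) of 8 genes at 0%, 35% and 70% bean in females and males: points are medians of 10 mice and bars run from the lowest to the highest mouse. The sexes part with bean for *Cyp3a11* (medians of 1918 and 1753 CPM at 0%, 2610 and 5170 CPM at 70%) and for *Cyp2a22*.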

How the data were processed

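Liver RNA was extracted with RNeasy columns, converted to libraries (Nugen Universal mRNA kit) and read as pairs of 150 bases. According to the labels and the study's methods, the authors trimmed reads (quality limit 0.05) and mapped them to GRCm38 with CLC Genomics Workbench 21.0.3. The sources used here do not state how reads shared by paralogs were divided or whether strand was used. The authors deposited raw counts per transcript for 60 libraries, and no column was without a sample. Transcript rows without a name in the GENCODE vM21 annotation (639 rows, 0.275% of counts) were left out, and the rest were summed to 20809 autosomal genes. Total counts of the 20 libraries were 24492629 to 41913476, and intervals and floors cover counting error only.

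The sexes were compared with edgeR 4.0.16 (quasi-likelihood F test, TMM, filterByExpr with a minimum count of 10 and a minimum total of 15) in R 4.3.3, with Benjamini-Hochberg adjustment over all 12674 genes tested and a threshold of 0.05. The remaining 8135 autosomal genes were too low to test. Sums of 18 gene families, and library measures, were compared as log2 (CPM + 1) or as such with 100000 two-sided permutations. Correlations used log2 (CPM + 1). The difference between diets was tested in 1 edgeR model of 6 group means. Each library is 1 mouse, and nothing else in the labels describes a batch. TPM values were computed from the deposited counts and transcript lengths. The fit was tested on simulated data with 12645 genes for the sex comparison, where edgeR recovered 46 of 50 genes changed by 1 on the log2 scale and 7 of its 150 calls were unchanged genes.

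Genes are named by a rule: the 15 with the largest change in each direction with a mean of at least 10 CPM in the higher sex, up to 6 members of a list by smallest p plus textbook members, the 5 smallest p of each diet test, and the 5 most and 5 least correlated with *Hsd3b5*. A few genes that this rule covers are not reported here. The members, lists and tests were chosen with earlier results of these data known. Alternatives were DESeq2 1.42.0, voom with sample weights (limma 3.58.1), scaling by upper quartiles or by RLE, other filters, all genes, a fit of all 60 mice, counts per transcript, library sizes without *Mup* genes, CPM without TMM, another pseudocount (0.5 CPM), and fits without each mouse. Leaving out each of the 20 mice in turn, and P01 with P06, was added after seeing the data.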

Additional observations from a re-analysis of the deposited data

Results flagged for a closer look

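Each of 368 sets of 10 mice of 1 sex was examined for a single mouse whose gap to the next exceeded Dixon's limit, and 44 passed. The limit lets through about 1 in 20 sets of independent, normally spread values. Some of these sets were related genes and their sums, or were at 0 in all but 1 mouse. The count of 44 is therefore no measure of an excess over chance. P01 accounted for 22 and P66 for 8. In CPM with the nearest other mouse of its sex beside it, P01 was lowest among males for *Abcg2* (62.9, next 89.4), *Acacb* (127, next 280), *Acss2* (123, next 288), *Cyp2a5* (161, next 262), *Cyp2c37* (6.63, next 63.9), *Cyp2e1* (1757, next 4021), *Cyp8b1* (192, next 541), *Elovl6* (174, next 362), *Fitm1* (23.1, next 45.1), *Fmo1* (153, next 190), *Gpd1* (566, next 826), *Hsd17b12* (174, next 231), *Serpina12* (22.0, next 63.8), *Tox* (3.02, next 6.14), the *Cyp2d* sum (1623, next 2292) and the *Ces2* sum (333, next 430). It was highest for *Sult2a3* (0.0680, next 0), *Ccnb1* (7.41, next 1.502), *Ccnd1* (209, next 106), *Gstp1* (902, next 656), *Selenbp2* (284, next 49.8) and the *Gstp* sum (922, next 682). P66 was highest among females for *Itih4* (8053, next 3697), *Lcn2* (828, next 41.1), *Mt1* (405, next 93.5), *Mt2* (272, next 32.4), *Orm2* (1269, next 63.6), *Saa1* (5406, next 166) and *Saa2* (6147, next 123), and lowest for *Cyp2u1* (6.29, next 9.46).

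Single mice also stood apart in other genes: *Sult2a1* in P11 (0.0536 CPM, next 0), *Sult2a2* in P21 (0.127 CPM, next 0.0340), *Cyp3a16* in P36 (0.248 CPM, next 0.0804), *Cyp2c69* in P61 (959 CPM, next 543), *Cux2* in P51 (37.0 CPM, next 62.8), *Cyp4a12a* in P61 (0.636 CPM, next 0.272), *Cyp4a12b* in P76 (0.684 CPM, next 0.166), *Cfd* in P86 (0.475 CPM, next 0.175), *Cyp1a1* in P51 (45.4 CPM, next 2.05), *Cyp2a4* in P06 (2.33 CPM, next 21.3), *Plekhd1* in P16 (0.276 CPM, next 0.0726), *Prlr* in P61 (471 CPM, next 374) and *Scara5* in P51 (0.109 CPM, next 0). P06 had 3.87% of its counts in *Mup* genes, the next male 2.35%. Several of these levels are a few reads.

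The sex difference at 0% differed from that at 70% bean by edgeR's quasi-likelihood test of the difference itself, as log2 values, for *Cyp2c40* (−2.03, adjusted p = 0.0327), *Cyp2b13* (−2.62, adjusted p = 0.0242), *Mup21* (1.54, adjusted p = 0.0202), *Abcb4* (−0.47, adjusted p = 0.000284), *Acaa1b* (−0.58, adjusted p = 0.0375), *Acadm* (−0.40, adjusted p = 0.0276), *Aox1* (0.41, adjusted p = 0.0428), *Atp6v0d2* (−2.09, adjusted p = 7.59e-05), *Atp8b1* (0.61, adjusted p = 0.000691), *Col1a2* (−1.25, adjusted p = 0.0305), *Cpt1a* (−0.52, adjusted p = 0.0109), *Cyp2a22* (−1.85, adjusted p = 0.0178), *Cyp3a11* (0.84, adjusted p = 0.00568), *Gstp1* (1.25, adjusted p = 0.00373), *Hacl1* (0.58, adjusted p = 0.00909), *Ly6a* (−0.85, adjusted p = 0.0139), *Mup11* (1.83, adjusted p = 0.0477), *Plekhd1* (5.47, adjusted p = 0.0061), *Rdh9* (−1.23, adjusted p = 0.000284), *Rtp3* (0.67, adjusted p = 7.86e-05), *Slc22a27* (−1.40, adjusted p = 0.0243), *Srd5a1* (0.68, adjusted p = 0.00618) and *Trim24* (−0.60, adjusted p = 0.00479). The 0% difference of *Cyp3a11* also differed from that at 35% (0.99, adjusted p = 0.0153). *Plekhd1* is near 0 in these libraries, so its value depends on the count added in the fit. The values of *Cyp2b13* and *Cyp2c40* rest on low counts in males.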

How the results depend on the processing

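The sex difference held 3300 genes, and between 3046 and 3770 when 1 mouse was left out. No gene called in both changed direction under any alternative. DESeq2 called 1715 genes higher in females and 1829 in males, limma-voom 2013 and 2040, upper-quartile normalization 1809 and 1602, and counts per transcript 1166 and 1373. Of the values of single named genes, 2019 kept their direction and their side of the threshold, 33 lost the threshold, 19 gained it and 24 changed sign. The changes of sign concern *Cyp3a11* (0.0033 with upper-quartile normalization, 0.088 with limma-voom, 0.0079 without P66, 0.070 without P01, 0.011 without P01 and P06), *Ppara* (0.018, 0.0053, 0.011 with a filter at 10 CPM, 0.0089 without P66, 0.041 per transcript, 0.0096 without P01 and P06), *Rtp3* (−0.000423 with no filter, −0.000674 with all 60 mice, −0.00618 without P66, −0.0657 per transcript), *Rdh9* (−0.038 without P01, −0.094 without P01 and P06), and, with DESeq2, *Cyp1a1* (−0.30), *Saa1* (−0.28, and −0.29 without P66), *Saa2* (−0.20, −0.21) and *Lcn2* (−0.0287, −0.037). The sum of *Cyp2j* was −0.00998 without P01. Correlations with the MUP sum changed sign for *Alb* in males (−0.138 with no TMM), *Cyp2d9* in females (0.0341) and *Cyp17a1* in males (0.0165 with *Mup* genes out of library sizes). Of 36 relations 4 passed by r, 1 with no TMM (*Hsd3b5*, while *Cyp2d9*, *Cyp7b1* and *Ghr* lost the threshold) and 7 without P01 (*Serpina1e*, *Cd36* and *Slco1a1* in addition). Library measures that differed numbered 1, and 2 without P66.

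Against 70% bean 234 genes differed above 0 and 152 below. DESeq2 gave 236 below 0, the fit without P66 144 above 0, and the fit without the male P04 of the 70% group 830 in all, 427 above and 403 below. Against 35% bean DESeq2 gave 3 genes, 2 of them below 0. The causes were not tested. No paired analysis was possible because replicate numbers follow the order of the labels and name no shared animal, litter or day. Near-identical paralogs, genes with almost no reads in 1 sex, and changes of 0.25 on the log2 scale (8 of 50 recovered in simulated data) are at the limit of this depth and design.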
